A study of Mus musculus with 6 samples.

Results

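STAT factors and SOCS feedback genes were followed in renal CD11B+ cells, as 9 genes chosen by name: the transcription factors Stat2, Stat3, Stat5a, Stat5b and Stat6, and the feedback inhibitors Socs1, Socs2, Socs3 and Cish. They are 9 of the 46603 genes counted, and all 9 were among the 15440 that passed the filter on low counts. CD11B is the integrin alpha M chain, which is carried by monocytes, macrophages and granulocytes, and the cells were isolated with magnetic beads from whole kidneys. All 6 animals were male mice aged 10 to 12 weeks that carried the allele Rosa26-LSL-RARaT403X, a dominant negative retinoic acid receptor that stays silent until Cre recombinase removes a stop cassette. All were killed on day 3 after bilateral ischemia reperfusion injury (IRI-AKI), made by a clamp of 28 minutes on each renal pedicle. The 3 PTEC DN RAR mice were PEPCK CRE+, and the 3 Cre– controls carried the silent allele alone (PEPCK CRE-). PEPCK-Cre acts in proximal tubular epithelial cells (PTECs), so the allele was not aimed at the CD11B+ cells that were sequenced. No uninjured animals are among the 6 libraries, and each library has a number of its own in the labels and was taken as 1 mouse. The comparison asks whether the transcripts of STAT factors and their inhibitors in these leukocytes differ with the genotype of the tubule.

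Cytokines that bind receptors without a kinase of their own use Janus kinases (JAKs), which phosphorylate STAT proteins. Phosphorylated STATs pair, enter the nucleus and switch on target genes, among them those for SOCS proteins, which bind receptors or JAKs and shut the signal off. In macrophages, STAT3 serves IL-6 and IL-10, STAT6 serves IL-4 and IL-13, STAT5A and STAT5B serve GM-CSF, and STAT2 is a subunit of ISGF3, the complex that answers type I interferon. STAT activity rests on phosphorylation, which transcript counts do not measure.

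The members' promoters differ in the STAT-type sequences they hold, and the 3 windows with a match are shown because they belong to the member with the largest fall, to the interferon factor Stat2 and to the interferon-induced inhibitor Socs1. Sequences are the 250 bases before the annotated start from RefSeq on GRCm38.p6, written 5′ to 3′ on the strand of the gene, with matches in capitals. The motifs searched on both strands were TTCNNNGAA, the usual form of a STAT dimer site (GAS), TTCNNNNGAA, the wider form that STAT6 prefers, and TTTCNNTTTC with its reverse complement GAAANNGAAA, the form that ISGF3 binds (ISRE). The Socs3 window lies on the minus strand at chr11:117969367-117969616, the Stat2 window on the plus strand at chr10:128270248-128270497, and the Socs1 window on the minus strand at chr16:10785537-10785786. The annotations differ on starts: by the GENCODE coordinates given with each gene, the whole Socs3 window lies inside the gene, so it precedes the RefSeq start only.
Socs3: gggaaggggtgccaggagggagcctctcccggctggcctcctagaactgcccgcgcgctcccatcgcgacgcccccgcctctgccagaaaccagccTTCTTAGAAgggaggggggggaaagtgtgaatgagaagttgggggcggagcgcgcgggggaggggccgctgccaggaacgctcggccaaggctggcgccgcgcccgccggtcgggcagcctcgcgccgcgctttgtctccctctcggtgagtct
Stat2: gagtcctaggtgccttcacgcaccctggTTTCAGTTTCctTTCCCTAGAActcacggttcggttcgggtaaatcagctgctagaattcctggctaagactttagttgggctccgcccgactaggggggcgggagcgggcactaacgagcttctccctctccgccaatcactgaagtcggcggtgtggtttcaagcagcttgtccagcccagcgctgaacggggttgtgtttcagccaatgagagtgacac
Socs1: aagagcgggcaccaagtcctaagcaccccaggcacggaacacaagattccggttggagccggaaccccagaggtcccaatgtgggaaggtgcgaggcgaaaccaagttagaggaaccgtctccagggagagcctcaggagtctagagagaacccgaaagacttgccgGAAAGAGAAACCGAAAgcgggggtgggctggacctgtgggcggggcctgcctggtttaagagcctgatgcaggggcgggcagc

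Socs3 held 1 match of the GAS type, TTCTTAGAA, which runs from 154 to 146 bases before the start. A match of this type was found in 7.02% of the 32851 windows in the table. Stat2 held an ISRE-type match, TTTCAGTTTC, from 222 to 213 bases before the start, and a match of the STAT6 type, TTCCCTAGAA, from 210 to 201. The ISRE type was found in 2.98% of windows and the STAT6 type in 5.85%. Socs1 held 2 ISRE-type matches that overlap each other, GAAAGAGAAA from 83 to 74 and GAAACCGAAA from 77 to 68 bases before the start, and 2 or more were found in 0.18% of windows. No match was found in the windows of Stat3, Stat5a, Stat5b, Stat6 or Cish, where 8 of the 9 members had an entry, with 10 windows between them. By the GENCODE coordinates, the windows of Cish, Stat5a and Stat5b lie wholly or partly inside those genes. The lack of a match there thus does not describe the bases before the GENCODE starts. Socs2 was not among the entries. A match describes the letters of a window and is not a measure of binding.

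The libraries held from 29318041 to 46517005 reads counted on genes, and levels are given as CPM. By library size alone, 3 reads are worth 0.0645 to 0.102 CPM. CPM gives counts relative to library size, here after TMM scaling, which sets libraries to a common level from the bulk of their genes. Mitochondrial transcripts took 5.03% to 8.77% of counts in Cre– controls and 10.4% to 12.1% in PTEC DN RAR mice. Markers of kidney cells other than leukocytes were higher in PTEC DN RAR libraries, with all 15 proximal tubule markers, 5 of 6 distal nephron markers and all 7 endothelial markers passing the test. The summed level of the proximal tubule list was 1094 to 1306 CPM in Cre– controls and 2815 to 4239 CPM in PTEC DN RAR mice, and that of the distal nephron list was 1158 to 1657 CPM against 4047 to 7688 CPM, highest in PTEC DN RAR replicate 3. The endothelial list summed to 73.7 to 109 CPM against 213 to 257 CPM. Among myeloid markers, 7 of 8 infiltrating monocyte markers and 6 of 10 neutrophil markers were lower, with sums of 3812 to 4113 CPM against 1611 to 1673 CPM and of 466 to 918 CPM against 203 to 317 CPM. The resident macrophage list overlapped between genotypes, with 1 of 7 markers higher. Of 8 genes that define CD11B+ myeloid cells, 4 were lower and 0 higher, and Itgam, which encodes CD11B itself, measured 1737, 1959 and 1995 CPM in Cre– controls and 1366, 1303 and 980 CPM in PTEC DN RAR mice. Of 4 dendritic cell markers 2 were higher, as was 1 of the 8 NK, T and B cell markers tested. Over all genes tested, 17.1% were lower and 23.6% higher by the same test. Of the markers tested, 14.3% of the resident macrophage list and 12.5% of the NK, T and B cell list were higher. Among the 10 markers of that list Ncr1, Cd3d and Cd3e stayed under 1 CPM in every library, and Cd3d and Cd3e did not pass the filter on low counts. The part of these cell types in the values that follow was not tested, and in bulk libraries fewer cells of a type and less RNA per cell cannot be told apart. Rara, the mouse gene for the receptor, had a log2 fold change of -0.33 (SE 0.13, edgeR adjusted p = 0.0628), which is no check of the labels because the truncated transgene is not counted apart from it here.

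Of the 9 members, 3 fell in PTEC DN RAR mice (Socs3, Stat2 and Stat6) and 0 rose, at an adjusted p under 0.05 from edgeR's quasi-likelihood test. This is 33.3% of members lower, where 17.1% of all genes tested were lower and 23.6% were higher, and 9 genes are too few to set these shares apart. The count of rises was also 0 at an unadjusted p under 0.05, with DESeq2 and with limma-voom. Libraries of the 2 genotypes had no overlap for 4 of 9 members, or 44.4%, against 53.4% of all genes. The median log2 fold change was -0.24 over the members and 0.04 over all genes tested. When libraries were scaled on 20 pan-leukocyte genes in place of TMM, the median of all genes moved to 0.27, so pan-leukocyte values are given below where they change a member's sign or call, or a list's count by over 1.5 times. Of those 20 genes 8 were lower with TMM and 0 higher, with a median of -0.21. Relative to the median of all genes, the difference for Socs3 was -0.96 under either scaling, that for Stat6 -0.33 under either, and that for Stat2 -0.65 with TMM and -0.63 with the pan-leukocyte genes.

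**Figure D1:**
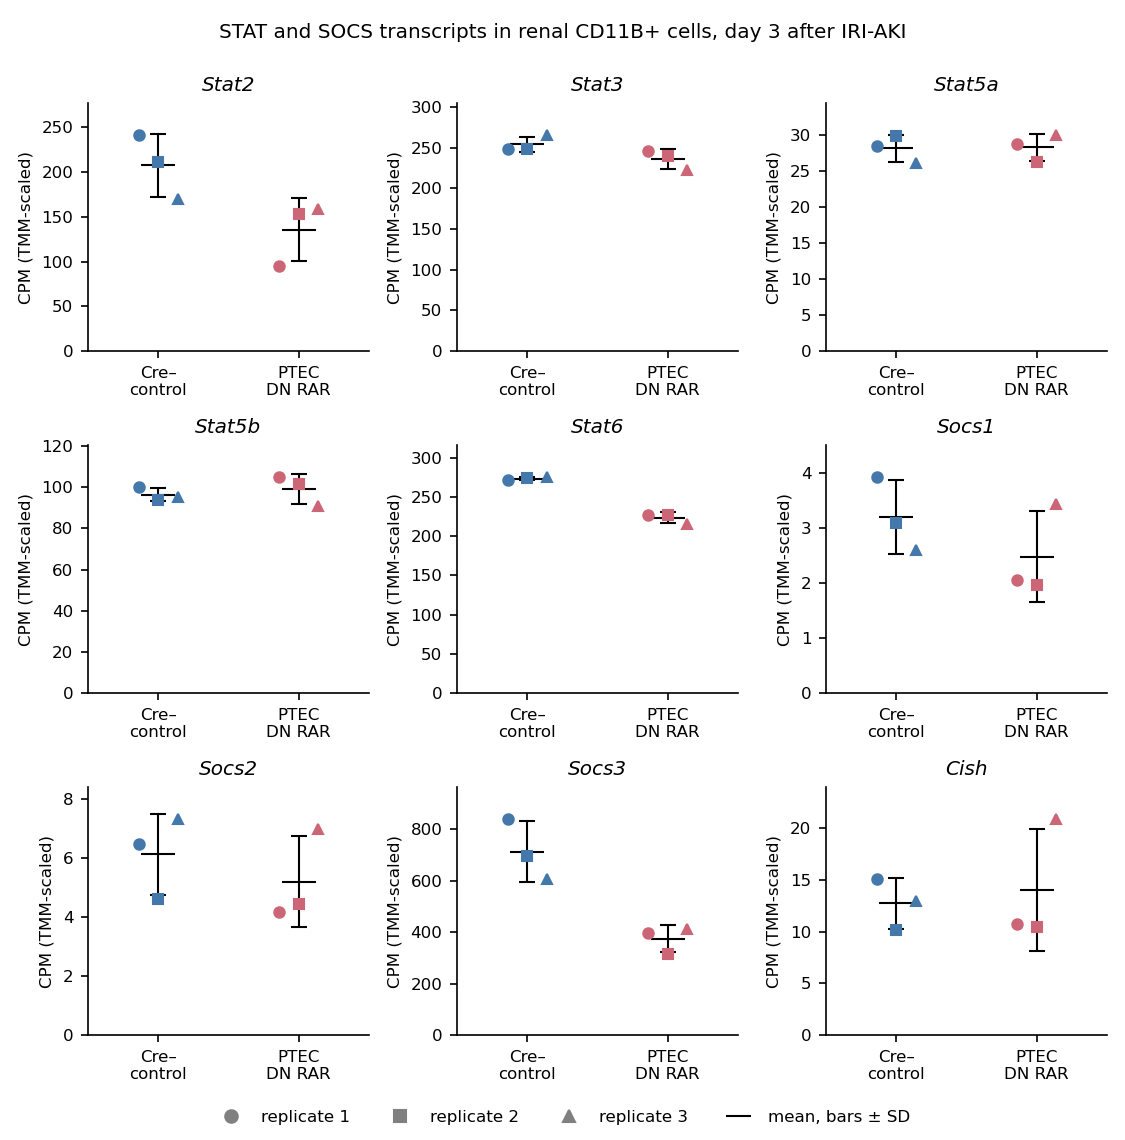
TMM-scaled CPM of the 9 members in each library (points, marker shape by replicate) with the mean of each genotype as a bar. Socs3, Stat2, Stat3 and Stat6 do not overlap between genotypes, and PTEC DN RAR replicate 3 is the highest of its genotype for Socs1, Socs2 and Cish.

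**Figure D2:**
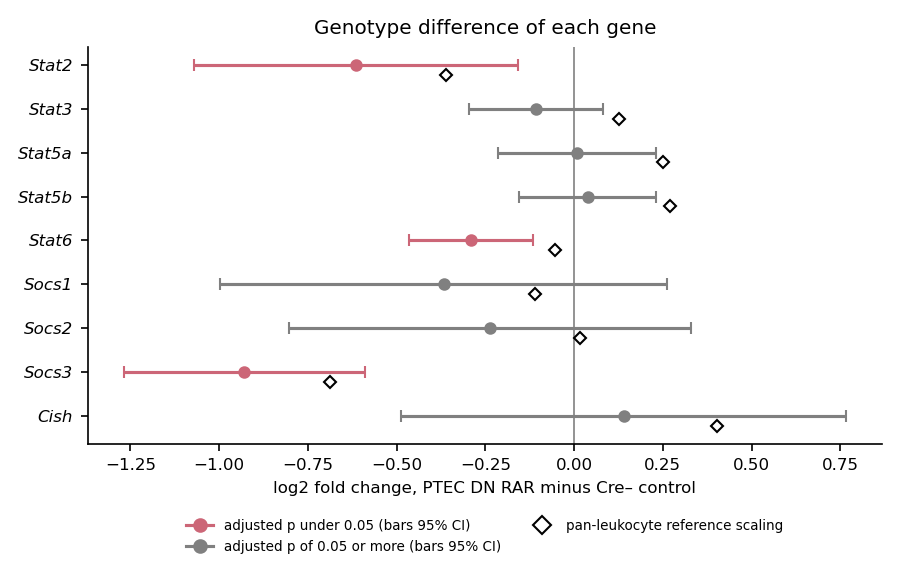
Log2 fold change of each member, PTEC DN RAR minus Cre– control, with its 95% confidence interval, and the same value after scaling on pan-leukocyte genes as an open diamond. Socs3 lies at -0.93 with TMM and at -0.69 with the pan-leukocyte genes, while Stat6 moves from -0.29 to -0.05.

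Socs3, the inhibitor that STAT3 induces and that binds the gp130 receptor chain and its JAKs, showed the largest fall. Socs3 (ENSMUSG00000053113, chromosome 11 of GRCm38 from 117966079 to 117970047, minus strand) measured 837, 696 and 604 CPM in Cre– controls and 398, 313 and 412 CPM in PTEC DN RAR mice. Every PTEC DN RAR library lay below every Cre– control, and the highest of them was still well short of the lowest control. Means were 712 ± 117 CPM (SD, n = 3) and 374 ± 53.5 CPM (SD, n = 3), a log2 fold change of -0.93 (SE 0.15, 95% CI -1.27 to -0.59, edgeR adjusted p = 0.00212). It passed the threshold in all 14 alternatives, with log2 fold changes from -1.08 to -0.69. With 13282 to 32675 reads per library, counting error is small beside the spread between mice. The summed infiltrating monocyte and neutrophil markers given above were lower in the same libraries, and their part in Socs3 was not tested.

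Stat3, the factor upstream of Socs3, barely differed. It measured 249, 249 and 265 CPM in Cre– controls and 246, 240 and 222 CPM in PTEC DN RAR mice. The genotypes did not overlap but lay close together, and the log2 fold change of -0.11 did not pass (95% CI -0.30 to 0.08, edgeR adjusted p = 0.328). With pan-leukocyte scaling the value was 0.13, but relative to the median of all genes it was -0.14 under either scaling. The Stat3 gene (ENSMUSG00000004040) lies on the minus strand of chromosome 11 from 100885098 to 100939540, and its end overlaps that of Stat5a by 72 bases. The strand setting of the counting is not given in the sources used here, so reads in that overlap cannot be assigned.

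Because both genes sit in the same library, their ratio does not depend on scaling. The log2 ratio of Socs3 to Stat3 stood at 1.75, 1.48 and 1.19 in the Cre– controls, while PTEC DN RAR mice had 0.69, 0.38 and 0.89. All 3 PTEC DN RAR values were below all 3 control values, a difference of -0.82 (exact permutation test, two-sided, p = 0.1, which is the lowest p possible with 3 mice in each genotype, and 0.25 after adjustment over 5 ratios). Socs3 transcripts were thus lower per Stat3 transcript in every PTEC DN RAR mouse.

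**Figure D3:**
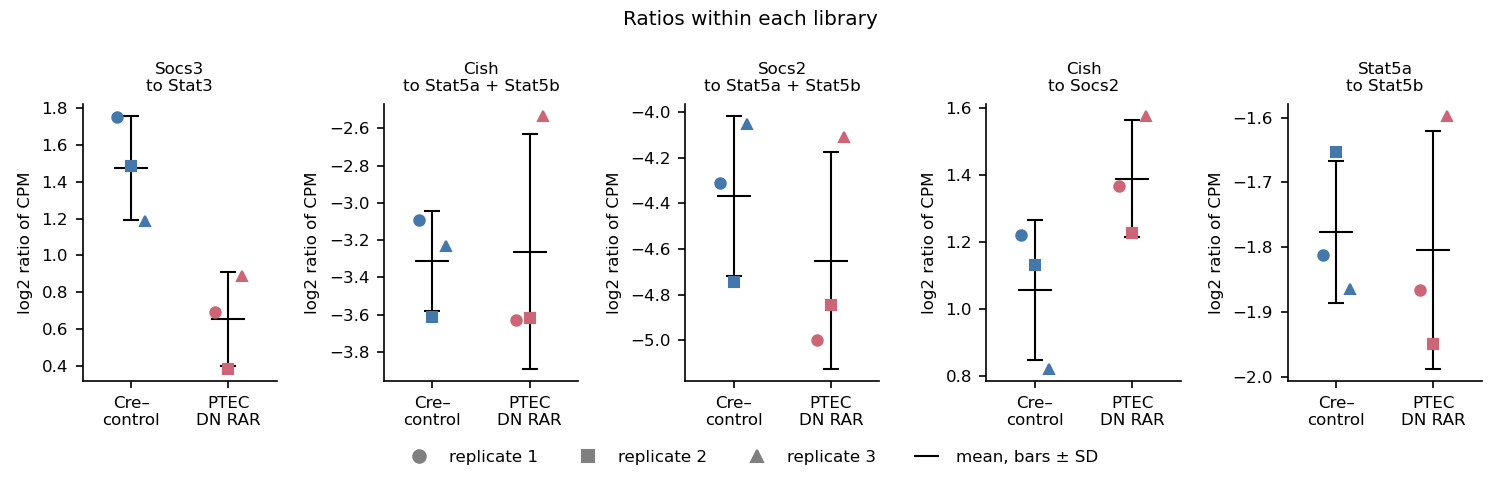
Log2 ratio of pairs of members within each library, by genotype, with the mean as a bar. Socs3 to Stat3 is lower in all 3 PTEC DN RAR libraries and Cish to Socs2 is higher in all 3, while the other ratios overlap.

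Stat2, the interferon factor, was lower in PTEC DN RAR mice with a wide spread. Stat2 (ENSMUSG00000040033, chromosome 10 from 128270559 to 128292849, plus strand) measured 241, 211 and 170 CPM in Cre– controls and 94.7, 153 and 158 CPM in PTEC DN RAR mice. The genotypes did not overlap, although the lowest control came close to the highest PTEC DN RAR library, and PTEC DN RAR replicate 1 stood far below the other two. Means were 207 ± 35.4 CPM (SD, n = 3) and 135 ± 35.4 CPM (SD, n = 3), a log2 fold change of -0.61 (SE 0.20, 95% CI -1.07 to -0.16, edgeR adjusted p = 0.0377). This call was lost without Cre– control replicate 1 (log2 fold change -0.50, adjusted p = 0.101), without Cre– control replicate 2 (-0.64, 0.0678) and without PTEC DN RAR replicate 1 (-0.41, 0.0695). With pan-leukocyte scaling the log2 fold change was -0.36 (adjusted p = 0.222).

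Stat6, the factor of IL-4 and IL-13, showed the smallest change that passed and the tightest values. Stat6 (ENSMUSG00000002147, chromosome 10 from 127642986 to 127660957, plus strand) measured 271, 274 and 275 CPM in Cre– controls and 228, 227 and 216 CPM in PTEC DN RAR mice. The controls were nearly equal and all PTEC DN RAR libraries lay below them. The mean was 18.2% lower, a log2 fold change of -0.29 (SE 0.08, 95% CI -0.46 to -0.12, edgeR adjusted p = 0.0168). The call held without any 1 library (adjusted p from 0.0225 to 0.0432), but with pan-leukocyte scaling the log2 fold change was -0.05 (adjusted p = 0.665). Stat6 shares 40 bases with Nab2 on the opposite strand.

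Stat5a and Stat5b, closely related neighbours that carry GM-CSF and growth hormone signals, did not pass in either direction. Stat5a (ENSMUSG00000004043, chromosome 11 from 100859351 to 100885169, plus strand) measured 28.5, 29.9 and 26.1 CPM in Cre– controls and 28.7, 26.3 and 30.0 CPM in PTEC DN RAR mice. Stat5b (ENSMUSG00000020919, chromosome 11 from 100780731 to 100850724, minus strand) measured 100, 94.0 and 95.1 CPM in Cre– controls and 105, 102 and 90.8 CPM in PTEC DN RAR mice. Both overlapped fully between genotypes. The 95% intervals of the log2 fold change ran from -0.21 to 0.23 for Stat5a and from -0.16 to 0.23 for Stat5b (edgeR adjusted p = 0.953 and 0.746), so larger differences lie outside these intervals. With pan-leukocyte scaling the log2 fold change of Stat5b was 0.27 (adjusted p = 0.0411), which is the shift of the median of all genes under that scaling: relative to that median it was 0.0030 with TMM and -0.00066 with the pan-leukocyte genes. The genes lie 8626 bases apart, and reads that align to both were left out of the counts, so their levels are uncertain where the copies match. The log2 ratio of Stat5a to Stat5b differed by -0.03 between genotypes (exact permutation test p = 0.8).

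Cish and Socs2, the classic targets of STAT5, were low, and 1 library stood apart in both. Cish (ENSMUSG00000032578, chromosome 9 from 107296026 to 107302784, plus strand) measured 15.1, 10.1 and 12.9 CPM in Cre– controls and 10.8, 10.4 and 20.8 CPM in PTEC DN RAR mice. Socs2 (ENSMUSG00000020027, chromosome 10 from 95385362 to 95417180), which limits growth hormone signaling, measured 6.48, 4.63 and 7.32 CPM in Cre– controls and 4.18, 4.45 and 6.99 CPM in PTEC DN RAR mice. In both genes, PTEC DN RAR replicate 3 stood apart from the other libraries of its genotype, at 1.97 times their mean for Cish and 1.62 times for Socs2. Neither passed, with log2 fold changes of 0.14 for Cish (95% CI -0.49 to 0.77, edgeR adjusted p = 0.713) and -0.24 for Socs2 (95% CI -0.80 to 0.33, adjusted p = 0.475). Without that library the values were -0.31 for Cish (adjusted p = 0.23) and -0.55 for Socs2 (adjusted p = 0.0956), so the sign for Cish turned. The sign for Cish also turned without Cre– control replicate 2 (-0.040). Its value was 0.29 without PTEC DN RAR replicate 1 and 0.31 without PTEC DN RAR replicate 2. Without PTEC DN RAR replicate 1 the value for Socs2 was -0.10, and without PTEC DN RAR replicate 2 or Cre– control replicate 3 it was -0.14. PTEC DN RAR replicate 3 had the highest sum of distal nephron markers, and the part of that in these genes was not tested. Cish shares bases with Gm17041, annotated as antisense, and Gm17040, annotated as a transcribed processed pseudogene, both on the opposite strand and near 0 CPM.

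The log2 ratio of Cish to Socs2 stood at 1.22, 1.13 and 0.82 in the Cre– controls, while PTEC DN RAR mice had 1.37, 1.23 and 1.57. All PTEC DN RAR values were above the controls, although the margin over the highest control was slight, and the difference was 0.33 (exact permutation test p = 0.1, 0.25 adjusted over 5 ratios). Against the sum of Stat5a and Stat5b, the log2 ratio differed by 0.05 for Cish (exact permutation test p = 1) and by -0.28 for Socs2 (exact permutation test p = 0.4), with overlapping genotypes in each.

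Socs1, which blocks JAKs downstream of interferons, was scarce. Socs1 (ENSMUSG00000038037, chromosome 16 from 10782240 to 10785536, minus strand) measured 3.92, 3.09 and 2.60 CPM in Cre– controls and 2.05, 1.96 and 3.43 CPM in PTEC DN RAR mice, from 82 to 162 reads a library. PTEC DN RAR replicate 3 lay among the controls, and the other PTEC DN RAR libraries lay below them. The log2 fold change was -0.37 (95% CI -1.0 to 0.26, edgeR adjusted p = 0.316), and -0.72 without that library (adjusted p = 0.0602). It was -0.20 without Cre– control replicate 1, -0.23 without PTEC DN RAR replicate 2 and -0.25 without PTEC DN RAR replicate 1. PTEC DN RAR replicate 3 was at 1.71 times the mean of the other libraries of its genotype for this gene.

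Levels between genes can be compared only per length, as CPM per kb of annotated exon. The length taken was that of all annotated exons of a gene merged, which can be longer than the transcripts present. In Cre– controls the mean level per kb was highest for Socs3 at 246, followed by Stat6 at 62.1, Stat2 at 35, Stat3 at 26.7, Stat5b at 17.4 and Stat5a at 3.95, and then by Cish at 1.98, Socs1 at 1.10 and Socs2 at 0.645. No neighbours in this order overlapped over the 3 controls. In PTEC DN RAR mice Socs3 still led at 129 CPM per kb, and Stat3 at 24.8 stood above Stat2 at 22.9, but their ranges overlapped, as did those of Stat2 and Stat5b and of Socs1 and Socs2. Among the SOCS members, Socs3 stood far above the other 3 per kb in both genotypes.

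**Figure D4:**
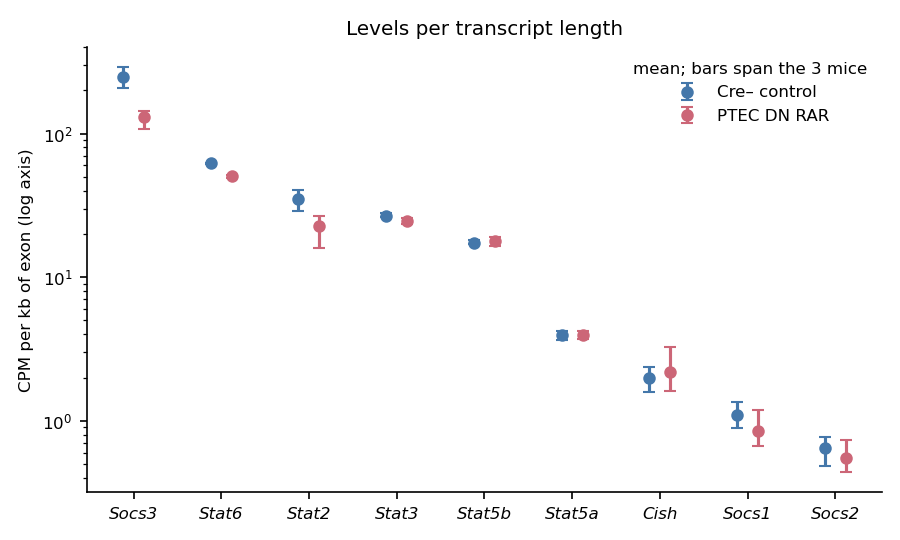
Mean CPM per kb of exon of each member in Cre– controls and PTEC DN RAR mice, on a log axis, with the range over 3 libraries as bars. Socs3 is highest in both genotypes, at 246 and 129 CPM per kb, and Socs2 is lowest.

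Other rows of the STAT and SOCS families moved in both directions. Stat4, which carries IL-12 signals, fell from 7.05, 10.8 and 9.92 CPM to 5.81, 5.26 and 3.73 CPM (log2 fold change -0.91, SE 0.22, edgeR adjusted p = 0.012). Socs5 rose from 17.6, 16.8 and 17.7 CPM to 22.9, 22.4 and 23.8 CPM (0.40, SE 0.10, adjusted p = 0.0105), with tight values in both genotypes. Socs4 (-0.20, adjusted p = 0.274) and Socs7 (0.18, adjusted p = 0.20) did not pass.

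The kinases and receptors ahead of the STATs were read from lists of textbook members. Of 4 JAK kinases 2 fell and 0 rose, or 50% lower against 17.1% of all genes: Jak1, at 392, 403 and 419 CPM against 353, 347 and 308 CPM (log2 fold change -0.27, edgeR adjusted p = 0.0405), and Jak2, at 69.9, 80.2 and 85.5 CPM against 63.9, 64.9 and 66.0 CPM (-0.27, adjusted p = 0.0424). Both lay near the threshold, and the count was 1 with library size alone as the scaling and 0 when each library had to hold 10 counts or more, without Cre– control replicate 2 or 3, without any 1 PTEC DN RAR replicate and with pan-leukocyte scaling, under which 1 JAK kinase was higher. None of the 4 interferon receptor genes passed with edgeR after TMM scaling, where 1 was lower at an unadjusted p under 0.05. With DESeq2, and with its size factors in edgeR, 1 passed, and with limma-voom 0.

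Among 10 receptors of the gp130 and IL-10 families, 3 rose and 1 fell. These shares, 30% and 10%, lie near the 23.6% and 17.1% of all genes. The risers were Lifr, at 102, 134 and 136 CPM against 192, 234 and 142 CPM (log2 fold change 0.61, edgeR adjusted p = 0.0273), Il11ra1 (0.61, adjusted p = 0.00544) and Il6st, which encodes gp130 itself (0.26, adjusted p = 0.0262). Il10rb, a chain of the IL-10 receptor, fell by 0.26 on the log2 scale (adjusted p = 0.0395). The rises numbered 1 without Cre– control replicate 2, Cre– control replicate 3 or PTEC DN RAR replicate 2, and the fall was lost under 7 of 14 alternatives, among them pan-leukocyte scaling and the loss of Cre– control replicate 1 or 3 or of any 1 PTEC DN RAR replicate. All 3 risers differed between genotypes in the same direction as the tubule and endothelial markers given above, whose part in them was not tested.

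The receptors of IL-4, the common gamma chain, GM-CSF and growth hormone split, with 5 lower and 4 higher of 13 tested. These are 38.5% and 30.8%, where all genes gave 17.1% and 23.6%. Il4ra, the chain that engages STAT6, measured 390, 344 and 446 CPM in Cre– controls and 230, 209 and 216 CPM in PTEC DN RAR mice (log2 fold change -0.85, SE 0.11, edgeR adjusted p = 0.000813). Its controls all lay far above the PTEC DN RAR libraries. The beta chains of the GM-CSF and IL-3 receptors fell too, Csf2rb by 0.61 (adjusted p = 0.00292) and Csf2rb2 by 0.68 (adjusted p = 0.00154) on the log2 scale, and reads that align to both of these near-identical copies were left out, which lowers their levels. Csf2ra, the alpha chain of the GM-CSF receptor, went the other way, at 166, 147 and 138 CPM against 199, 211 and 179 CPM (0.39, adjusted p = 0.0171), and is named after its value was seen. Ghr, the growth hormone receptor, rose from 12.7, 10.1 and 17.0 CPM to 30.0, 39.6 and 41.8 CPM (1.49, adjusted p = 0.00096), and kidney epithelium also expresses it. The count of lower genes kept within 1.5 times of 5 in all 14 alternatives. The count of higher genes was 7 with pan-leukocyte scaling and 2 without Cre– control replicate 2, Cre– control replicate 3 or PTEC DN RAR replicate 2.

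Of 15 ligand genes 9 were tested, of which 4 fell, 1 rose and 4 did not pass. The shares were 44.4% lower and 11.1% higher, against 17.1% and 23.6% of all genes. Osm, which encodes oncostatin M, a gp130 cytokine that myeloid cells make, measured 298, 213 and 271 CPM in Cre– controls and 87.3, 70.9 and 110 CPM in PTEC DN RAR mice (log2 fold change -1.54, SE 0.18, edgeR adjusted p = 0.000518). The genotypes were far apart. Il10, Il6 and Csf3 also fell, but all were below the mean of 10 CPM set for naming genes and are named after their values were seen. Il10 measured 12.0, 8.42 and 7.76 CPM against 3.80, 2.52 and 4.51 CPM (-1.38, adjusted p = 0.00359). Ebi3, a subunit of IL-27 and IL-35, rose by 0.48 (adjusted p = 0.00438). Without PTEC DN RAR replicate 1 the count of lower ligands was 2, and with limma-voom it was 3.

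Brakes other than SOCS proteins numbered 10, of which 3 fell and 0 rose, or 30% lower against 17.1% of all genes. They were Usp18, an inhibitor at the interferon receptor (log2 fold change -0.88, edgeR adjusted p = 0.0343), Ptpn2, a phosphatase of JAKs and STATs (-0.47, adjusted p = 0.0132), and Pias1, which inhibits activated STATs (-0.40, adjusted p = 0.00572). With pan-leukocyte scaling 0 of the 10 were lower and 1 was higher. SOCS proteins act with elongins and a cullin to mark their partners for degradation, and of 4 such genes Tceb1, which encodes elongin C, fell by 0.45 on the log2 scale (adjusted p = 0.00644). This is 25% lower against 17.1% of all genes. The count was 0 with pan-leukocyte scaling and 2 in 6 other alternatives, among them the loss of Cre– control replicate 1 or PTEC DN RAR replicate 3.

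STAT3 targets were mostly lower in PTEC DN RAR mice. Of 10 STAT3 targets 9 were lower and 0 higher, which is 90% lower against 17.1% of all genes, with a median log2 fold change of -0.68, and from 6 to 9 were lower in all 14 alternatives. Il1rn, which encodes the IL-1 receptor antagonist, measured 169, 149 and 176 CPM in Cre– controls and 71.7, 63.2 and 77.7 CPM in PTEC DN RAR mice (log2 fold change -1.22, SE 0.11, edgeR adjusted p = 0.000211). Zfp36, which encodes a protein that degrades cytokine transcripts, fell by 0.80, Pim1, a kinase, by 0.75 and Hif1a, the hypoxia factor, by 0.61 on the log2 scale (adjusted p = 0.00714, 0.00202 and 0.00385). For 8 of the 10, or 80%, the libraries did not overlap by genotype, against 53.4% of all genes. The list was drawn up with earlier results of these data known, and other factors induce these genes too. Of 6 STAT5 targets, 2 fell (33.3% against 17.1% of all genes), Pim1 and Osm, and both stand in another list as well, and with pan-leukocyte scaling 1 was higher.

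**Figure D5:**
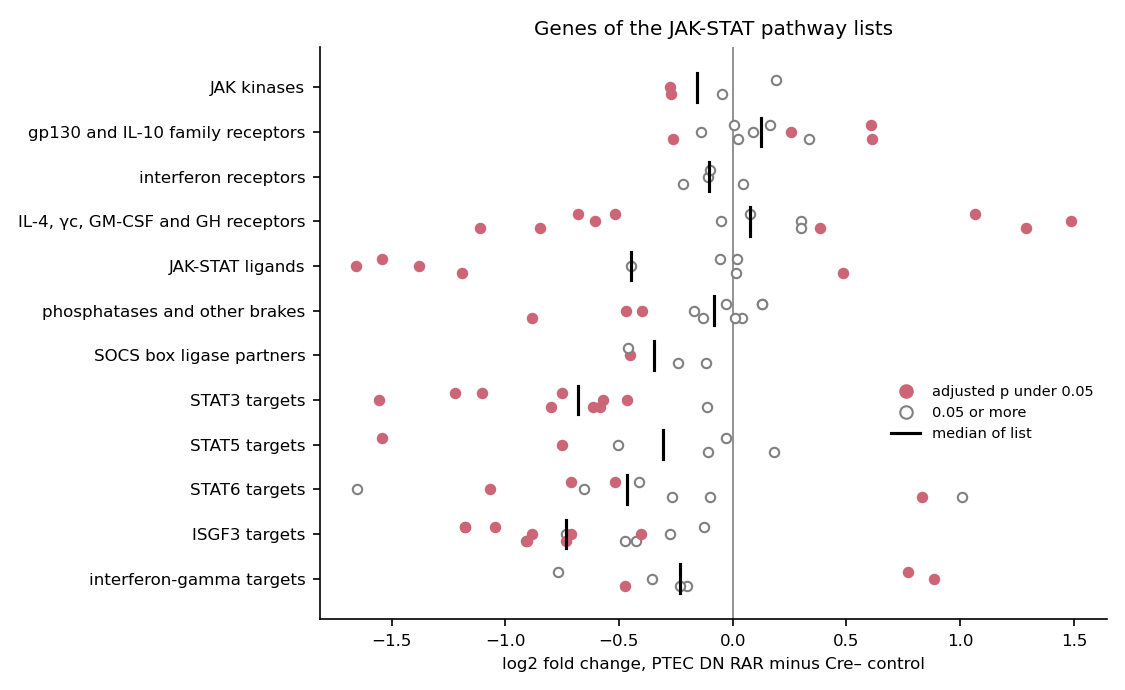
Log2 fold change of each tested gene of the pathway lists, PTEC DN RAR minus Cre– control, one row per list, filled where the adjusted p is under 0.05. The STAT3 targets lie mostly to the left of 0, with 9 of 10 filled, while receptors lie on both sides.

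STAT6 targets were split by gene. Of the 10 counted here, 3 were lower and 1 higher, or 30% and 10% against 17.1% and 23.6% of all genes, with a median log2 fold change of -0.46. Chil3, a chitinase-like secreted protein that also stood in the infiltrating monocyte list, measured 226, 248 and 207 CPM in Cre– controls and 91.5, 78.3 and 155 CPM in PTEC DN RAR mice (log2 fold change -1.07, edgeR adjusted p = 0.00689). The genotypes did not overlap, and PTEC DN RAR replicate 3 lay nearest to the controls. Mrc1, the mannose receptor, fell by 0.71 and Egr2, a transcription factor, by 0.52 on the log2 scale (adjusted p = 0.0041 and 0.0339). Without PTEC DN RAR replicate 3 the lower genes numbered 5, and without Cre– control replicate 2 or 3 or PTEC DN RAR replicate 1 or 2 the higher genes numbered 0. The 6 that did not pass were Clec10a (log2 fold change -0.65, adjusted p = 0.0518), whose genotypes did not overlap, and Mgl2 (-0.27), Ccl17 (-0.41), Ccl22 (-0.10), Ccl24 (-1.65) and Retnla (1.01), whose genotypes did, with adjusted p from 0.116 to 0.723. The rise was that of Pdcd1lg2 at under 3 CPM (0.83, adjusted p = 0.029). These 7 genes lie outside the naming rule and are named after their values were seen.

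Of 14 ISGF3 targets 8 were lower and 0 higher, which is 57.1% lower against 17.1% of all genes, with a median log2 fold change of -0.73. For 7 of the 14, or 50%, the libraries did not overlap by genotype, against 53.4% of all genes, and the summed level of the list overlapped, at 1485 to 2433 CPM in Cre– controls and 730 to 1546 CPM in PTEC DN RAR mice. Usp18 is 1 of the 8 and stands among the brakes as well. Isg15, a ubiquitin-like modifier, measured 129, 85.4 and 72.8 CPM in Cre– controls and 26.8, 41.7 and 58.8 CPM in PTEC DN RAR mice (log2 fold change -1.17, SE 0.29, edgeR adjusted p = 0.0127). Oasl2 measured 481, 389 and 272 CPM against 93.4, 198 and 214 CPM (-1.18, adjusted p = 0.0158). In both, Cre– control replicate 1 was the highest library and PTEC DN RAR replicate 1 the lowest, the libraries that were also highest and lowest for Stat2. Ifit1 (-1.05, adjusted p = 0.0293) and Rsad2 (-0.90, adjusted p = 0.0319), which restrict viruses, had the same extremes. The count of 8 fell to 3 without Cre– control replicate 1 or 2, to 5 without PTEC DN RAR replicate 1, to 4 without PTEC DN RAR replicate 2, and to 2 with pan-leukocyte scaling.

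Targets of interferon-gamma went in both directions, with 1 lower and 2 higher of 7 tested. These shares, 14.3% and 28.6%, lie near the 17.1% and 23.6% of all genes. Cxcl9, a chemokine, measured 71.3, 86.6 and 65.1 CPM in Cre– controls and 105, 130 and 177 CPM in PTEC DN RAR mice (log2 fold change 0.88, edgeR adjusted p = 0.0067). Ciita, which drives MHC class II genes, rose from 184, 228 and 181 CPM to 358, 361 and 290 CPM (0.77, adjusted p = 0.0023). Cd274, which encodes PD-L1, fell by 0.48 on the log2 scale (adjusted p = 0.00258). Without PTEC DN RAR replicate 3 the lower genes numbered 5, and with pan-leukocyte scaling 0, so that the call of Cd274 was lost. The lower genes numbered 2 with limma-voom, without the filter on low counts and without Cre– control replicate 3.

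The genes whose values over the 6 libraries lay nearest to those of Socs3 were found by the distance between log2 CPM profiles, each centred on its mean, among 8991 genes of at least 10 CPM. They were Sirpb1c at a distance of 0.187, Dusp1 at 0.243, Zfp36 and Tmsb10 at 0.263 and Dpep2 at 0.287. Zfp36 was also in the STAT3 target list. Each of these 5 fell in PTEC DN RAR mice, as the choice by likeness to Socs3 fixes.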

How the data were processed

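The 6 libraries hold polyA RNA of kidney CD11B+ cells, 3 per genotype. The authors deposited raw read counts per Ensembl gene, without normalization. The submitters' processing notes list STAR 2.5.0a, HTSeq 0.6.1, edgeR, limma and GRCm38 with no roles. Reads aligning to more than 1 place (42.9% to 47.8% of each library's alignments) are left out of gene counts, which lowers near-identical genes. Of 46612 gene lines 9 repeats were collapsed and 27 symbols turned into dates were restored. Libraries were checked for duplicates (chi-square per degree of freedom at least 29.6 within a genotype).

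The quasi-likelihood test of edgeR 4.0.16 (glmQLFit, glmQLFTest, R 4.3.3) was fitted after filterByExpr and TMM scaling. Its p-values were adjusted over 15440 genes (Benjamini-Hochberg), with a threshold of 0.05. The labels number the libraries singly but do not say outright that each is 1 mouse, so p-values measure the spread between these libraries, part of which may be technical. Log2 ratios of CPM were compared by exact permutation. Log2 CPM (prior count 2) gave the distances between gene profiles and an alternative form of the ratios. The fit was tested on simulated data. Coordinates come from GENCODE M21 on GRCm38. All members, other STAT and SOCS rows, the 5 genes most like the member with the largest fall, and up to 4 genes per list with the largest called change and at least 10 CPM were named. Some items of these lists are not reported here. Members and lists were chosen with earlier results of these data known. Alternatives used DESeq2 1.42.0, limma 3.58.1 (voom), other scalings and filters, the replicate number as a block and each library left out. Python 3.11.15, pandas 2.3.3, numpy 2.4.6 and matplotlib 3.10.9 made tables and figures.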

Additional observations from a re-analysis of the deposited data

How the results depend on the processing

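With pan-leukocyte scaling 1 member was lower (Socs3) and 1 higher (Stat5b), and over all genes 686 were lower and 5203 higher, against 2636 and 3640 with TMM. That scaling moved the median of all genes from 0.04 to 0.27, and relative to it Stat3 and Socs2 stayed below 0, at -0.14 and -0.25. Among members that did not pass, signs turned with that scaling for Stat3 (0.13) and Socs2 (0.016), with DESeq2 and with its size factors in edgeR for Stat5a (-0.0287 and -0.0288) and Stat5b (-0.00096 and -0.00080), and without the filter on low counts for Stat5a (-0.018). Leaving out 1 library at a time gave log2 fold changes from -0.090 to 0.057 for Stat5a, from -0.022 to 0.062 for Stat5b and from -0.31 to 0.31 for Cish, from -0.72 to -0.20 for Socs1 and from -0.55 to -0.10 for Socs2, and differences in log2 ratio from -0.31 to 0.23 for Cish to Stat5a plus Stat5b from -0.55 to -0.11 for Socs2 to Stat5a plus Stat5b, from 0.21 to 0.41 for Cish to Socs2 and from -0.13 to 0.044 for Stat5a to Stat5b. The replicate numbers join different mice, and same-numbered libraries deviated with correlations of -0.01, 0.21 and 0.03. With the replicate block 2 members were lower, with Stat2 at -0.63 (edgeR adjusted p = 0.068), and 3 ISGF3 targets, 1 JAK kinase and 2 SOCS box partners, against 8, 2 and 1 without it, while over all genes 2606 were lower and 3612 higher. Socs1, Socs2 and Cish rest on 82 to 983 reads a library, the fewest of the members in every library, and on standard errors of 0.25 to 0.28, against 0.08 to 0.20 for the other 6.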
